A study of Mus musculus with 123 samples.

Results

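Voltage-gated calcium channels open when the membrane is depolarised and let calcium into the neuron. Dorsal root ganglion (DRG) neurons, the sensory neurons whose axons run in the sciatic nerve, were examined here for 10 genes of these channels, named by symbol among the 24134 genes of the deposited tables. They are 6 genes of the pore-forming α1 subunit (Cacna1a, Cacna1b, Cacna1c, Cacna1e, Cacna1h and Cacna1i), 3 genes of the α2δ subunit (Cacna2d1, Cacna2d2 and Cacna2d3) and Cacnb3, a gene of the β subunit. The sciatic nerve was cut (sciatic nerve transection, SNT) on the right side of adult mice of 2 months, and DRG neurons of the uncut left side were the control. Pools of picked neurons and single neurons were taken 3 days after SNT from female F1 mice of a CAST/Eij father and a C57BL/6 mother, and single neurons were taken 7 days after SNT from C57BL/6 mice of both sexes. The day-3 cells and pools were sequenced in reads of 50 bp and the day-7 cells in reads of 75 bp, so that day, strain and read length cannot be told apart, and levels are compared here only between sides of 1 day. The SNT side can also hold neurons whose axons were not cut, since some axons of these ganglia do not run in the sciatic nerve.

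The α1 subunit forms the pore and sets the type of current. Cacna1a encodes the P/Q-type and Cacna1b the N-type channel, which trigger transmitter release at synaptic terminals. Cacna1c encodes an L-type channel that couples electrical activity to transcription, Cacna1e an R-type channel, and Cacna1h and Cacna1i T-type channels, which open at low voltage. The α2δ subunits sit on the outer face of the membrane and carry channels to the cell surface and the terminals. Cacna2d1 encodes the α2δ protein that gabapentin and pregabalin bind, and it is known to be induced in DRG neurons by nerve injury. The β subunits, among them the product of Cacnb3, bind α1 on the inner face of the membrane and help it to reach the surface.

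Cacna2d1, Cacna1b and Cacnb3 were the members that passed an adjusted p of 0.05 between the pools of each side, and their promoters are shown because Cacna2d1 rose while Cacnb3 was lower in the same pools. Each window is 300 bases long, from 250 before to 50 after a RefSeq transcription start, in build GRCm38.p6, and is written 5′ to 3′ on the strand of the gene. Capitals mark every match, on either strand, to GGGCGG (the GC box) or to TGACG (the core of the cyclic AMP response element, which ATF and CREB family proteins bind). Of the 10 members 8 had at least 1 window in the RefSeq table, with 11 windows in all, and Cacna1a and Cacna1h had none. The windows are Cacna2d1 at chr5:15934441-15934740 on the plus strand, Cacna1b at chr2:24763103-24763402 on the minus strand, and Cacnb3 at chr15:98632078-98632377 (start A) and chr15:98634517-98634816 (start B) on the plus strand.
Cacna2d1: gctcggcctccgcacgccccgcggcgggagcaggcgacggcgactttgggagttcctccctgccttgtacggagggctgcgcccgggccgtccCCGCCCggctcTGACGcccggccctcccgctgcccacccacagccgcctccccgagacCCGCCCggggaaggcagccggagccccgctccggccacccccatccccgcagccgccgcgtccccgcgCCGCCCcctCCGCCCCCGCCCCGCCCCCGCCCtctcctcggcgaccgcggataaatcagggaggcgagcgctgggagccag
Cacna1b: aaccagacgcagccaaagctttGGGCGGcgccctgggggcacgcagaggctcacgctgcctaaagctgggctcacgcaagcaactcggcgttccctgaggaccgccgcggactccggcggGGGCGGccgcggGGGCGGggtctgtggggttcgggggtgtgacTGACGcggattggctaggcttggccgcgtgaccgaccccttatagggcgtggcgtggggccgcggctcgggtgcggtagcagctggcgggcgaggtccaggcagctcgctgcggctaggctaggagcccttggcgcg
Cacnb3, start A: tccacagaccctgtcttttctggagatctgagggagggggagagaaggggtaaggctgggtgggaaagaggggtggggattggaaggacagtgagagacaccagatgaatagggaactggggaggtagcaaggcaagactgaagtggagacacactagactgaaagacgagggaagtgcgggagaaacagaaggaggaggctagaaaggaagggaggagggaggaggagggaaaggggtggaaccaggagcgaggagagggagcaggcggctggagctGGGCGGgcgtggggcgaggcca
Cacnb3, start B: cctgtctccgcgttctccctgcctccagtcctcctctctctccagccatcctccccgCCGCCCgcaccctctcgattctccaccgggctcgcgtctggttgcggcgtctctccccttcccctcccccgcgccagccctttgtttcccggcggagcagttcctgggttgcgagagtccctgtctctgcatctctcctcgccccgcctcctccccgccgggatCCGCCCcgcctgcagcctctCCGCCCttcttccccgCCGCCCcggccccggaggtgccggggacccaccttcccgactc
The Cacna2d1 window held 7 GC boxes and 1 TGACG, which lay 146 bases before the start, and its GC content of 80% was above that of 99% of the 32851 promoter windows in the table. The Cacna1b window held 3 GC boxes and 1 TGACG, which lay 87 bases before the start. The Cacnb3 windows held 1 and 4 GC boxes and no TGACG. High GC content was not particular to Cacna2d1. The window of Cacna2d3 and 1 window of Cacna1c, genes that did not pass in the pools, each had 81.3% GC and 6 GC boxes. The other Cacna1c windows had 51.3% GC, and 1 of them held a TGACG. So did the window of Cacna1i, a gene that was not tested in the pools. Of the 11 windows of the members 7 held a GC box and 4 a TGACG, and over all windows in the table these shares were 35.7% and 20.8%. The full response element TGACGTCA, found in 1.79% of all windows, and the AP-1 site TGANTCA, found in 7.81%, were in none of the 11 windows of the members. These are matches of letters and say nothing of binding. In GENCODE M21 (GRCm38) the Cacna2d1 gene spans chr5:15934691-16374511, Cacna1b chr2:24603887-24763152 and Cacnb3 chr15:98630840-98644529. These are not the coordinates of mm9, the build named in the processing notes of the counts.

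There were 117 single neurons and 6 pooled libraries, and 106 cells remained after the outlier removal by the authors (41 SNT and 18 control cells at day 3, 33 and 14 at day 7). Total counts were 563462 to 2003817 per pooled library and 261351 to 1849130 per kept cell. All SNT pools were deeper than all control pools. The 3 pooled libraries of a side were parts of 1 lysate of many neurons, so that their spread is technical and every p compares 2 pools of neurons, not animals. The labels name no animal for the cells, so that cells cannot be summed per animal, and the cells of a side and day were pooled and are described without a test. The day-7 cells came from at least 1 mouse of each sex. For the pools, the names of the columns and the identifiers beside them give the sides in opposite ways, and the source label calls all 6 intact. The names were used. Atf3, the transcription factor gene that axotomy induces, was at 8.25 to 21.5 CPM (counts scaled to a library total of 1000000) in the pools named control and at 1372 to 1619 CPM in those named SNT. With the identifiers in place of the names every pooled difference given here would change sign. All 6 neuron markers (Tubb3, Snap25, Uchl1, Rbfox3, Isl1 and Prph) were detected in every group, with summed levels of at least 6191 CPM per library. They summed to 7424 to 8545 CPM in the control pools and to 13324 to 15026 CPM in the SNT pools, without overlap. Markers of non-peptidergic nociceptors (NP, 6 genes) summed to 3343 to 3440 CPM in the control pools and 565 to 637 CPM in the SNT pools, and 10 markers of glia to 12538 to 15177 and 6134 to 6918 CPM. Markers of large myelinated neurons (LM) summed to 722 to 753 and 1008 to 1096 CPM, those of peptidergic nociceptors (PEP) to 1642 to 2032 and 1598 to 1838 CPM, and those of C-low-threshold mechanoreceptors to 905 to 1120 and 300.1 to 379 CPM. The part of these shifts in the differences between pools was not tested, and in pools fewer neurons of a type and less RNA per neuron cannot be told apart. The 8 immune markers summed to at most 9.56 CPM in any pool, with Ptprc at 0 in all 6. In kept cells their median was 0 in control and 8.40 CPM in SNT cells at day 3, and 0 and 6.40 CPM at day 7. The highest control and SNT cells held 86.9 and 3299 CPM at day 3 and 12.8 and 760 CPM at day 7. Erythrocyte markers (5 genes) reached 94.1 CPM in control and 29.4 CPM in SNT cells at day 3, and 33.1 and 4670 CPM at day 7. The part of such RNA in the cell ratios was not tested.

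In the pools the α2δ gene Cacna2d1 rose after SNT and stood alone among the members in passing both limits. Cacnb3 and Cacna1b also differed beyond the spread of the libraries, Cacnb3 lower and Cacna1b higher on the SNT side, each by less than 2-fold. The other members with a test, Cacna1a, Cacna1c, Cacna1e, Cacna1h, Cacna2d2 and Cacna2d3, did not pass. Of the 9 members tested 1 (Cacna2d1, higher) passed an adjusted p below 0.05 together with a change beyond 2-fold, against 15.9% of the 13509 genes tested, and 8.83% were higher in this way. By adjusted p alone 3 of 9 members passed, against 24.8% of all genes. The median log2 change was 0.45 over the 9 members and 0.02 over all genes tested. The ranges of the sides did not overlap in 5 of the 9 members (Cacna1b, Cacna1e, Cacna2d1, Cacna2d2 and Cacnb3), against 38% of all genes.

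Among the α2δ genes, Cacna2d1 was at 224, 118 and 172 CPM in the 3 control pools and at 801, 683 and 588 CPM in the SNT pools. Every SNT library lay above every control library. The fitted log2 change was 2.17 (SE 0.17), 4.52-fold, with an adjusted p of 1.17e-13 (edgeR quasi-likelihood test, Benjamini-Hochberg). Cacna2d2, whose product also binds gabapentin, was at 20.6, 26.2 and 28.4 CPM in the control pools and at 8.39, 16.5 and 13.4 CPM in the SNT pools. Its ranges did not overlap, but its log2 change of -0.82 (SE 0.40) had an adjusted p of 0.131 in the same edgeR fit. Cacna2d3, an α2δ gene without gabapentin binding, was at 28.9, 35.4 and 26.6 CPM in the control pools and at 38.3, 43.5 and 32.4 CPM in the SNT pools. These ranges overlapped, and the log2 change of 0.45 (SE 0.29) had an adjusted p of 0.282 in edgeR.

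The β subunit gene Cacnb3 was at 217, 263 and 193 CPM in the control pools and at 139, 121 and 124 CPM in the SNT pools. Every SNT library lay below every control library. The log2 change was -0.66 (SE 0.17), with an adjusted p of 0.00229 in edgeR, and was under the 2-fold limit. Of the α1 genes, Cacna1b was at 72.9, 83.4 and 67.4 CPM in the control pools and at 95, 110.0 and 110.0 CPM in the SNT pools. The SNT libraries were the higher ones, with a log2 change of 0.64 (SE 0.20) and an adjusted p of 0.0158 in edgeR. This p was 0.0511, 0.0610, 0.0549 and 0.0651 when control library 1 or 3 or SNT library 2 or 3 was left out, and 0.0122 to 0.0758 over all 14 alternatives.

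The low-level α1 genes were less certain. Cacna1e was at 2.75, 4.77 and 3.55 CPM in the control pools, which is 2 to 4 counts per library, and at 8.37, 11.3 and 11 CPM in the SNT pools. The SNT libraries were again the higher ones, but the log2 change of 1.58 (SE 0.64) had an adjusted p of 0.0693 in edgeR. Cacna1h was at 8.25, 5.96 and 17.7 CPM in the control pools and at 19.6, 23.5 and 16.2 CPM in the SNT pools. These ranges overlapped through the third control and the third SNT library, and the log2 change was 1.11 (SE 0.45) with an adjusted p of 0.0670 in edgeR. Without control library 3 it passed both limits, with a log2 change of 1.63 and an adjusted p of 0.0205 (edgeR), against 0.0205 to 0.243 over its 14 alternatives. Cacna1a and Cacna1c overlapped between sides, with log2 changes of 0.42 (SE 0.34) and -0.19 (SE 0.33). Cacna1i fell under the limit of a mean of 1 CPM and was not tested. It had 0, 2 and 2 counts in the control pools and 0 in each SNT pool, where a count of 0 allows up to 3 counts. Exons of Cacna1a and Cacna2d2 overlap antisense genes (Gm16183 and Gm17141) and those of Cacna1h overlap Tpsg1 on the other strand, and no source says that reads were assigned by strand, so reads of these pairs cannot be told apart.

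**Figure D1:**
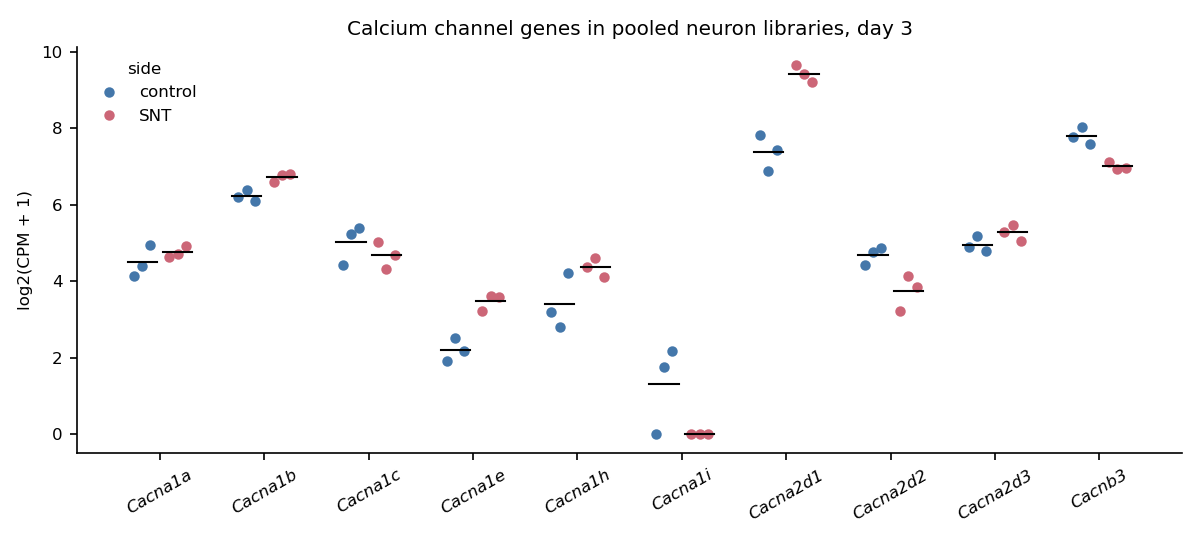
Levels of the 10 genes in the pooled libraries, as log2(CPM + 1) on the vertical axis, with 1 point for each of 3 libraries per side and a bar at their mean. The Cacna2d1 points of the SNT side lie above all control points, those of Cacnb3 below them, and Cacna1i is at 0 in every SNT library.

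Among single neurons at day 3 the same gene stood out. The mean of Cacna2d1 over cells was higher on the SNT side, and the means of Cacna2d2, Cacnb3, Cacna1c and Cacna1h were lower, of which only Cacna2d2 was past 2-fold. The log2 ratio of Cacna1h was -0.95 and moved between -1.21 and -0.21 when any 1 cell was left out, and its sign was opposite to that of its fitted value in the pools. Of the 8 members with at least 10 CPM on either side, 2 (Cacna2d1 and Cacna2d2) were past a 2-fold ratio of mean CPM + 1, against 11.9% of the 9736 genes at that level. The median log2 ratio was -0.53 over the 8 members and -0.05 over all those genes. The summed NP markers had a median of 2121 CPM over control and 1235 CPM over SNT cells, and the PEP markers 1964 and 1267 CPM. Those of C-low-threshold mechanoreceptors had 490.3 and 204 CPM, the LM markers 228 and 293 CPM and the glial markers 3748 and 3794 CPM. The part of such differences in the members' ratios was not tested.

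Cacna2d1 ranged from 51.2 to 578 CPM (median 253) over the 18 control cells and from 116 to 3386 CPM (median 1029) over the 41 SNT cells. Its means were 270.2 ± 125 and 1131 ± 835 CPM (SD over cells), a log2 ratio of 2.06, which stayed between 1.99 and 2.16 when any 1 cell was left out. No control cell lacked it, and 26 of 41 SNT cells exceeded the highest control cell. The other 15 SNT cells lay within the control range.

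Cacna2d2 ranged from 5.67 to 133 CPM (median 24.3) in control cells and from 0 to 127 CPM (median 4.72) in SNT cells. Its means were 36.3 ± 33.7 and 16.3 ± 25.8 CPM (SD), and 23 of 41 SNT cells lay below every control cell. The log2 ratio was -1.11, and it was -0.87 or -0.98, under the 2-fold limit, without the control cell at 133 or the one at 89.9 CPM. Cacna2d2 was above 10 CPM in 16 of 18 control cells (88.9%, exact binomial 95% interval 65.3 to 98.6%) and in 16 of 41 SNT cells (39%, 24.2 to 55.5%). After every cell was thinned to 200000 counts these shares were 72.2% and 34.1%, and the order was thus the same at equal depth. Cacna2d3 was alike in mean on the 2 sides, at 22.3 ± 22.6 and 21.3 ± 22.1 CPM (SD).

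Cacnb3 was found in every cell, from 121 to 445 CPM (median 303) in control cells and from 20.3 to 425 CPM (median 165) in SNT cells. The means were 274 ± 97.6 and 172 ± 110 CPM (SD), a log2 ratio of -0.67, and 17 of 41 SNT cells lay below every control cell. Cacna1b was also found in every cell, with means of 159 ± 82.6 CPM in control and 121 ± 48 CPM (SD) in SNT cells. Its log2 ratio of -0.39 was opposite in sign to its change between the pools. No SNT cell left the control range of 39.5 to 368 CPM.

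Cacna1c had means of 68.1 ± 52.0 and 39.2 ± 38.3 CPM (SD), and it was at 0 in 2 of 18 control and 3 of 41 SNT cells. Cacna1a differed little, with means of 26.7 ± 14.9 and 21.4 ± 17.2 CPM (SD). The T-type and R-type genes were above 10 CPM in few cells, though Cacna1e had reads in 7 of 18 control and 17 of 41 SNT cells and Cacna1h in 7 and 12. Cacna1h was above 10 CPM in 5 of 18 control cells (27.8%, 9.69 to 53.5%) and 8 of 41 SNT cells (19.5%, 8.82 to 34.9%), with a median of 0 on both sides and a highest cell of 184 and 95.1 CPM. Cacna1i was above 10 CPM in 2 of 18 control cells and in 0 of 41 SNT cells, where the exact binomial interval reached 8.60%. Its counts summed to 163 and 9, 1 control cell held 87.1 CPM, and its mean, with a log2 ratio of -3.01, was below the 10 CPM level at which members were counted. Its rho with the markers of C-low-threshold mechanoreceptors was 0.59 over the 18 control cells and 0.23 over the 41 SNT cells. Cacna1e was above 10 CPM in 1 control and 2 SNT cells.

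At day 7 Cacna2d1 was again higher and Cacnb3 lower on the SNT side, both past 2-fold, while Cacna2d2 was lower by less. Of the 9 members with at least 10 CPM on either side 3 were past 2-fold (Cacna1e, Cacna2d1 and Cacnb3), or 2 without the single cell that carried Cacna1e past 10 CPM, against 7.66% of the 9622 genes at that level. The median log2 ratio was 0.02 over these members and -0.07 over the genes. The summed glial markers had a median of 5185 CPM over control and 1487 CPM over SNT cells, the NP markers 153 and 113 CPM, the PEP markers 109.8 and 454 CPM and the LM markers 3420 and 3351 CPM, and their part in the ratios was not tested.

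Cacna2d1 ranged from 5.52 to 238 CPM (median 106) over the 14 control cells and from 0 to 1936 CPM (median 247) over the 33 SNT cells. The means were 111 ± 89.1 and 467 ± 535 CPM (SD), a log2 ratio of 2.07. The SNT cells lay on both sides of the control range, with 17 above its highest and 5 below its lowest cell. In female mice the log2 ratio was 2.38 (16 SNT and 7 control cells) and in male mice 1.74 (17 and 7 cells). The difference between the sexes was not tested.

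Cacnb3 ranged from 102 to 385 CPM (median 208) in control cells and from 18.0 to 280 CPM (median 90.9) in SNT cells. The means were 216 ± 81.4 and 100.0 ± 58.8 CPM (SD), a log2 ratio of -1.10, and 19 of 33 SNT cells lay below every control cell. In female and male mice the ratio was -1.24 and -0.98. Cacna1b had means of 125 ± 71.1 and 180 ± 116 CPM (SD), a log2 ratio of 0.53, with 0.22 in female and 0.73 in male mice. Of its 33 SNT cells 3 exceeded and 3 lay below the control range.

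Cacna2d2 had a median of 11.1 CPM in control and 1.82 CPM in SNT cells, and it was at 0 in 2 of 14 and 13 of 33 cells. Its mean fell short of a 2-fold difference, at 21.1 ± 22.9 against 14.9 ± 22.3 CPM (SD, log2 ratio -0.47), while the ratio of medians was -2.10 on the log2 scale. Cacna2d3 had means of 63.7 ± 44.2 and 45.3 ± 30.4 CPM (SD). Cacna1c had nearly equal means, 35.5 ± 45.3 and 36 ± 53.0 CPM (SD), but medians of 15.1 and 3.2 CPM. It was above 10 CPM in 7 of 14 control and 12 of 33 SNT cells, the highest at 157 and 166 CPM. Cacna1a had means of 67.8 ± 37 and 77.1 ± 28.7 CPM (SD) and was above 10 CPM in every day-7 cell.

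The 3 rarest members rested on single cells at day 7. Cacna1e had 0 counts over the 14 control cells, which allows 3 counts or 0.284 CPM, and 280 counts over the SNT cells. The SNT mean of 14.1 CPM was at least 49.7-fold higher than that limit, but 1 cell held 429 CPM, and without it the mean was 1.17 CPM and the gene no longer reached 10 CPM. It was read in 5 of 33 SNT cells. Cacna1h had means of 43.3 ± 149 and 34.2 ± 93.1 CPM (SD) and a log2 ratio of -0.33. Without the control cell at 558 CPM this ratio was 2.91, and without the SNT cell at 468 CPM it was -1.03. Cacna1i had 0 counts in the control and 1 in the SNT cells.

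**Figure D2:**
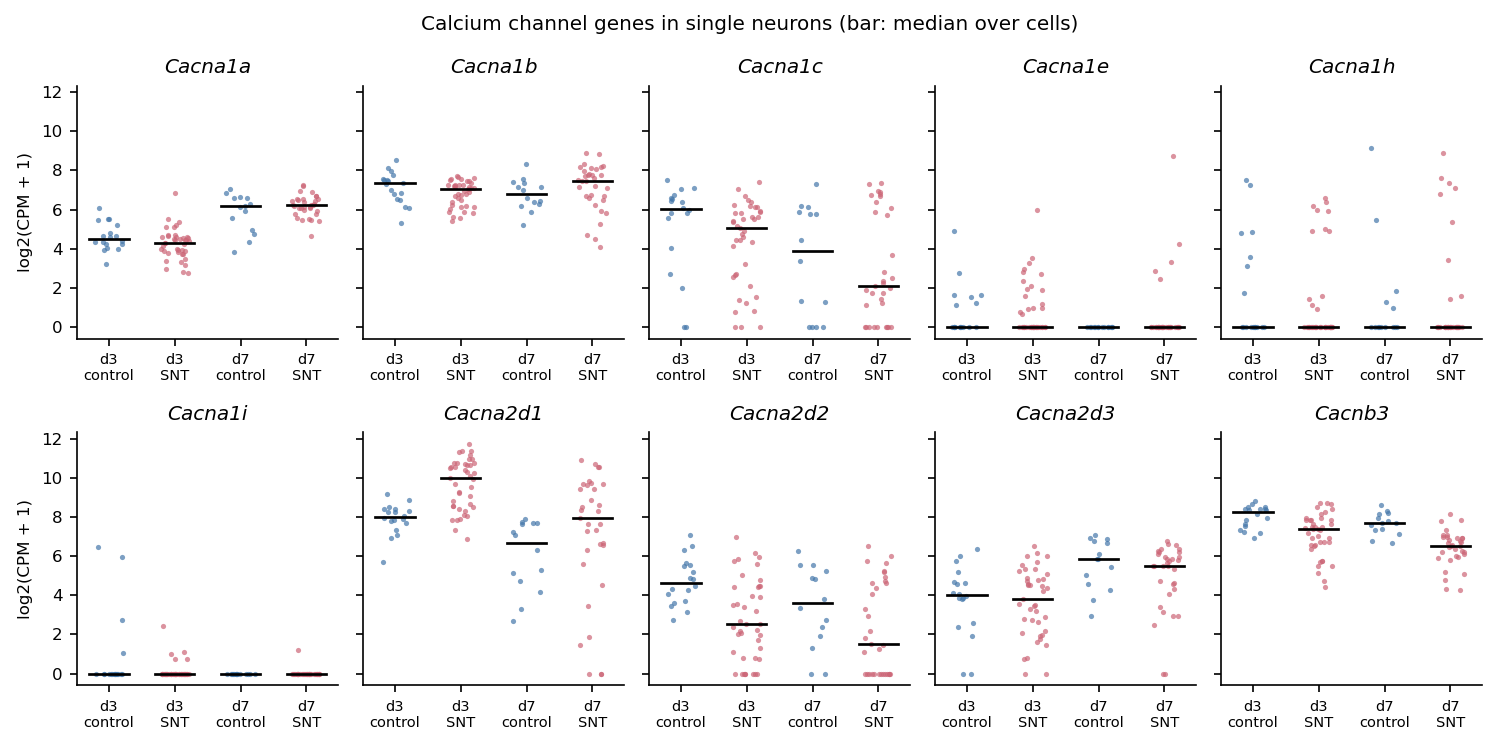
Levels of the 10 genes in single neurons, as log2(CPM + 1) on the vertical axis, with 1 point per cell for the control and SNT sides at day 3 (18 and 41 cells) and day 7 (14 and 33 cells) and a bar at the median over cells. Cacna2d1 has its highest cells on the SNT side at both days, Cacnb3 has its lowest cells there, and Cacna1e, Cacna1h and Cacna1i are at 0 in most cells.

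**Figure D3:**
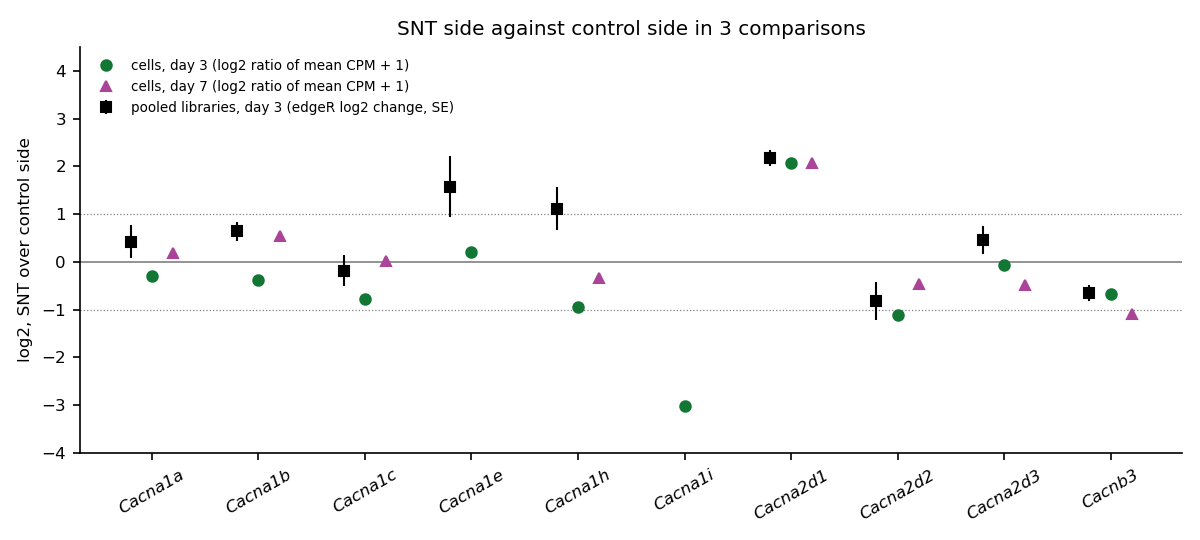
Difference between the SNT and the control side on the log2 scale for the pooled libraries (squares, edgeR log2 change with its SE, 3 libraries per side), day-3 cells (circles) and day-7 cells (triangles, log2 ratio of mean CPM + 1), with dotted lines at 2-fold. Cacna2d1 lies above 2 in each, Cacnb3 and Cacna2d2 lie below 0 in each, and ratios against a side at 0 (Cacna1e and Cacna1i at day 7) and the untested Cacna1i of the pools are left out.

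The SNT-side cells fell into separate sets by Atf3, and the 3 subunit genes Cacna2d1, Cacna2d2 and Cacnb3 are therefore set beside Atf3 as counts of cells. At day 3 the highest control cell held 75.7 CPM of Atf3, and 30 SNT cells held at least 951 CPM while the other 11 held at most 23 CPM. All 26 SNT cells with more Cacna2d1 than any control cell were among those 30. So were all 17 with less Cacnb3 and 21 of the 23 with less Cacna2d2 than any control cell. At day 7 the highest control cell held 29 CPM of Atf3, and 12 SNT cells held at least 704 CPM while the other 21 held at most 13.9 CPM. All 12 had more Cacna2d1 than any control cell, as did 5 of the 21. All 5 SNT cells with less Cacna2d1 than any control cell were among the 21. Of the 19 SNT cells with less Cacnb3 than any control cell, 10 were among the 12 and 9 among the 21. All 5 SNT cells with Cacna1e reads were among the 21.

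**Figure D4:**
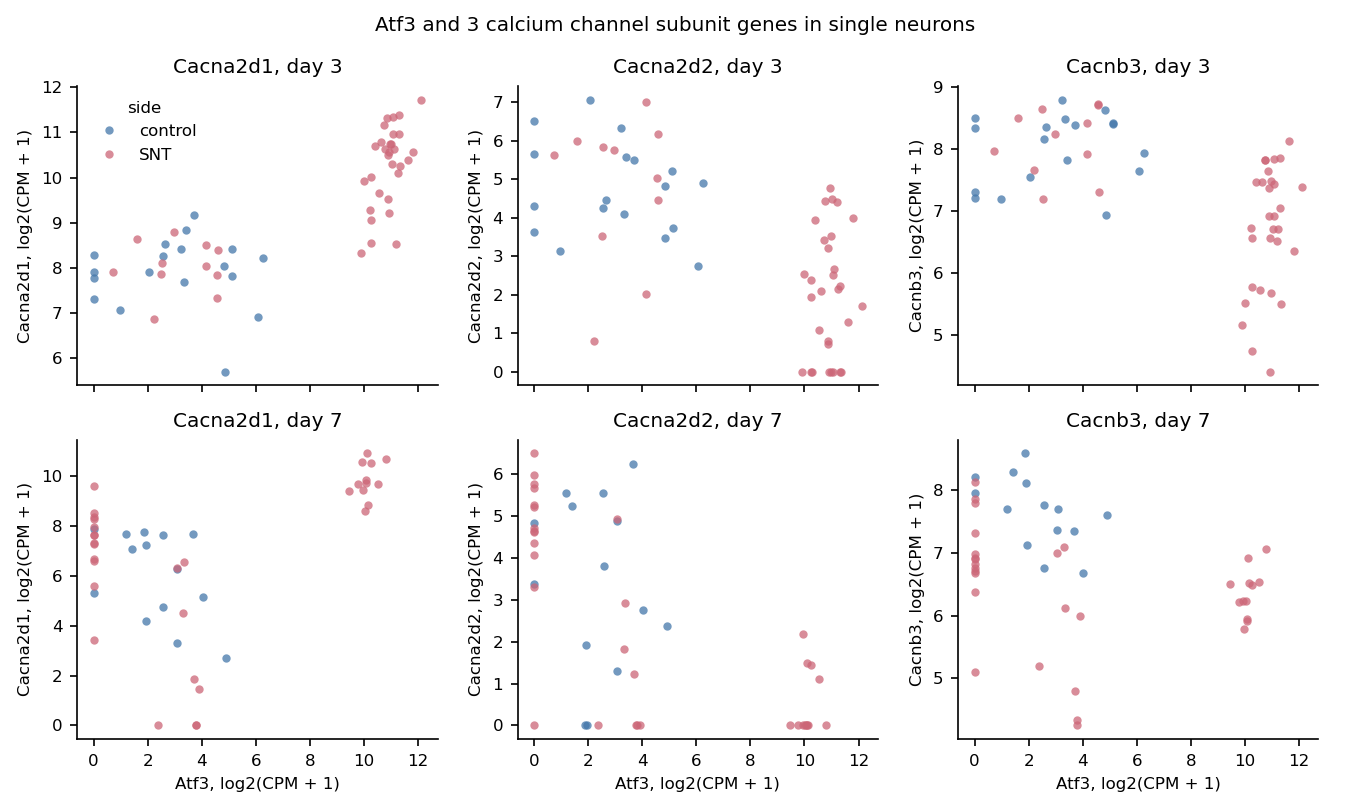
Atf3 (horizontal axis) against Cacna2d1, Cacna2d2 and Cacnb3 (vertical axis) in each kept cell at day 3 (top) and day 7 (bottom), both as log2(CPM + 1), with control cells in blue and SNT cells in red. At both days the SNT cells form separate sets of low and high Atf3, and the high set holds most of the cells with the most Cacna2d1.

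Levels can be compared between genes only per length of transcript. Per kilobase of exon in the control pools, Cacnb3 was highest at 56.0 CPM per kb, followed by Cacna2d1 at 13.8, Cacna1b at 7.5, Cacna2d3 at 3.5, Cacna2d2 at 3.2, Cacna1a at 1.95, Cacna1c at 1.55 and Cacna1h at 1.09 CPM per kb. Cacna1i and Cacna1e were lowest, at 0.20 and 0.15 CPM per kb. With the longest coding transcript as the length, Cacna1b and Cacna2d3 changed places, as did Cacna1i and Cacna1e, and the remaining order stayed. Over the 3 control libraries Cacnb3, Cacna2d1 and Cacna1b did not overlap with their neighbours per kilobase of exon, while from Cacna2d3 down to Cacna1h each gene overlapped with the next, as did Cacna1i with Cacna1e. Cacna1b was the most abundant α1 gene on either length. In control cells Cacnb3 was also first, at 68.4 CPM per kb at day 3 and 53.8 at day 7. Cacna1b was second of the α1 and α2δ genes at day 3 (16 against 21.8 for Cacna2d1) and first at day 7 (12.5 against 8.91 CPM per kb for Cacna2d1).

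Cacna2d1 made up a larger part of the α2δ transcripts on the SNT side. Counted per kb over the 4 α2δ genes with Cacna2d4, its share was 56.3 to 75.3% in the control pools and 88.6 to 92.0% in the SNT pools, without overlap. Over cells the median share was 81.6% in control and 95.3% in SNT cells at day 3, and 45.6% and 76.3% at day 7. Cells of each side ranged widely, from 27.8 to 93.7% and from 53.0 to 99.9% at day 3 and from 5.45 to 95.8% and from 0 to 99.9% at day 7. Cells had a median of 7 members above 10 CPM in control and 6 in SNT cells at day 3, and 6 and 5 at day 7, with 1 to 5 α1 genes per cell.

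Cacna1b, Cacna1c, Cacna2d3 and Cacnb3 varied with the markers of sensory neuron classes in rank correlations over SNT-side cells, which are given as descriptions without a test (41 cells at day 3, 33 at day 7). Cacna1a, Cacna1h and Cacna1i had rho between -0.25 and 0.22 with the NP, PEP and LM markers at day 3. At day 7 Cacna1h had 0.41 with NP and -0.37 with LM markers, and Cacna1a had 0.34 with NP markers. Cacna1e had -0.40 with NP and 0.37 with LM markers at day 3. At day 7, where 5 of 33 cells had its reads, Cacna1e had 0.42 and -0.49. The cells of a side share animals, and both genes of a pair share the depth of their library. Both Atf3 sets entered, so that such a rho mixes Atf3 set and cell class. With Atf3 the rho at day 3 and day 7 was 0.74 and 0.53 for Cacna2d1, -0.38 and -0.71 for Cacna2d2 and -0.36 and -0.36 for Cacnb3. Cacna1c and Cacna1b ran together at day 3 (Spearman rho 0.64) and day 7 (0.65), and also in control cells (0.56 over 18 cells and 0.67 over 14). Cacna1c was high where 5 markers of peptidergic nociceptors (PEP: Calca, Tac1, Gfra3, Trpv1 and Adcyap1) were high, with rho of 0.44 at day 3 and 0.76 at day 7. With NP markers Cacna1c had a rho of 0.58 at day 3, above that with PEP markers, and of 0.41 at day 7. It was low where 6 markers of large myelinated neurons (LM: Nefh, Pvalb, Ntrk3, Ntrk2, Spp1 and Cntnap2) were high, with rho of -0.63 and -0.76. Cacna2d3 showed the opposite, with -0.57 and -0.82 against PEP and 0.54 and 0.69 against LM markers. Between each other Cacna1c and Cacna2d3 had a rho of -0.40 at day 3 and -0.81 at day 7. In control cells Cacna2d3 had -0.42 and -0.87 against PEP and 0.29 and 0.80 against LM markers.

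Cacnb3 was high where NP markers were high (rho 0.63 at day 3 and 0.57 at day 7) and low where LM markers were high (-0.42 and -0.72). Cacna2d2 had a rho of 0.45 and 0.55 with NP and -0.43 and -0.56 with LM markers at day 3 and day 7. In the control cells of these days its rho with NP markers was -0.07 and 0.004. NP markers were themselves lower on the SNT side of the pools, and their part in the lower Cacnb3 and Cacna2d2 was not tested. With glial markers Cacnb3 had a rho of -0.21 at day 3 and 0.60 at day 7, and of -0.44 and -0.46 in the control cells of these days. Cacna1b had a rho of 0.25 and 0.69 with PEP and -0.48 and -0.70 with LM markers at day 3 and day 7. Cacna2d1 had 0.38 and 0.65 with PEP and -0.33 and -0.41 with LM markers. Total counts per cell had rho between -0.40 and 0.30 with every member.

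**Figure D5:**
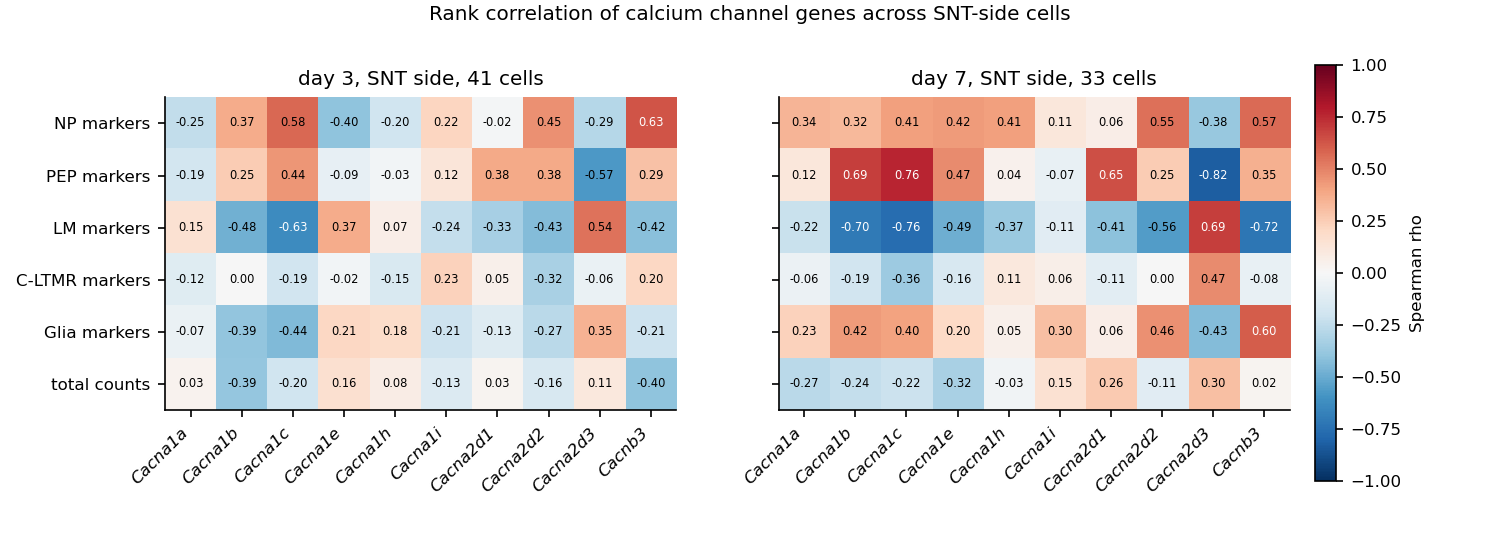
Spearman rank correlation (colour and number) of each of the 10 genes (columns) with the summed CPM of 5 marker lists and with total counts (rows), over the 41 day-3 (left) and 33 day-7 (right) SNT-side cells. Cacna1c and Cacna2d3 have opposite signs against PEP and LM markers at both days.

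The genes most like a member were ranked by Spearman rho over the 59 kept day-3 cells of both sides among the 9277 genes that averaged 10 CPM or more, and rho over the 47 day-7 cells is given beside it. Since both sides and both Atf3 sets entered, such a rho mixes side and cell class. Nearest to Cacna2d1 were Rnh1 (0.85 at day 3, 0.52 at day 7), Sbno2 (0.85 and 0.76) and Sox11 (0.85 and 0.58). Nearest to Cacnb3 were Pknox2 (0.76 and 0.74), Stim1 (0.76 and 0.07) and Cdipt (0.75 and 0.78). For Cacna2d2 they were Gnao1 (0.83 and 0.71), Ebf1 (0.81 and 0.60) and Ptms (0.79 and 0.62), and for Cacna1c Camk2a (0.84 and 0.77), Tshz2 (0.82 and 0.60) and Pkia (0.81 and 0.76). For Cacna1b they were Ank2 (0.77 and 0.75), Ap3d1 (0.68 and 0.51) and Nav1 (0.68 and 0.82), and for Cacna2d3 Mest (0.67 and 0.81), Arhgap24 (0.65 and 0.58) and Isca2 (0.65 and 0.39). Cacna1a was nearest to Atp2a2 (0.69 and 0.26), Nacc1 (0.63 and 0.24) and Nt5dc3 (0.61 and 0.49), and Cacna1h to Pcdh10 (0.60 and 0.10). No gene reached 0.6 with Cacna1e or Cacna1i. At day 7 the genes named for Cacna1a and Cacna1h, Stim1 for Cacnb3 and Isca2 for Cacna2d3 had rho below 0.5.

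The remaining subunit genes of the channels and 2 lists of related genes were followed in the same fit. Of 16 further subunit genes 7 were tested in the pools, and 1 rose and 2 fell, where 15.9% of all genes changed. Cacnb4, another β subunit gene, fell from 294 ± 50.9 to 58.8 ± 1.71 CPM (SD, n = 3 libraries per side, log2 change -2.16, adjusted p 7.22e-13 in edgeR), which was a larger fall than that of Cacnb3. In cells its mean was 288 in control and 102 CPM in SNT cells at day 3, and 164 and 209 CPM at day 7. The γ subunit gene Cacng2, whose product is known mainly as a partner of AMPA receptors, fell with a log2 change of -2.27 (adjusted p 0.00443 in edgeR) and Cacng5 rose with 1.29 (0.000451). Cacng2 had log2 ratios of -1.13 at day 3 and -0.19 at day 7 in cells. Cacng5 was also higher in SNT cells, with log2 ratios of 1.09 at day 3 and 1.76 at day 7. The median log2 change of the 7 was 0.50.

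Of 15 regulators of the channels 11 were tested, and 1 rose and 1 fell, a share near the 15.9% of all genes, with a median log2 change of -0.13. Rem2, a small GTPase of the RGK family that inhibits calcium channels, fell from 56.9 ± 8.45 to 0.166 ± 0.288 CPM (SD, n = 3, adjusted p 1.09e-12 in edgeR). Its 3 control pools held 119 counts in all and the SNT pools 1, a ratio of 269.6 with an exact 95% counting interval of 47.5 to 10738. In cells its mean was 15.2 in control and 0.76 CPM in SNT cells at day 3, and 46.9 and 10.7 CPM at day 7. Stac2, an adaptor protein that acts on L-type channels, rose from 15.5 ± 7.3 to 66.2 ± 11.4 CPM (SD, log2 change 2.19, adjusted p 5.64e-07 in edgeR), but in cells its log2 ratio was 0.24 at day 3 and -0.06 at day 7.

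Of 27 genes of calcium clearance, stores and buffers 24 were tested in the pools, and 3 rose (Atp2b4, Ryr3 and Itpr1) and 1 fell (Calb1), again a share near the 15.9% of all genes. The inositol trisphosphate receptor gene Itpr1 rose from 5.92 ± 2.58 to 25.3 ± 0.928 CPM (SD, n = 3, log2 change 2.29, adjusted p 0.000167 in edgeR), and its log2 ratio in cells was 2.67 at day 3 and 2.78 at day 7. The ryanodine receptor gene Ryr3 rose with a log2 change of 3.3 (adjusted p 0.000377 in edgeR), from 4 counts in a single control library, while its log2 ratio in cells was -0.75 and -0.92. The calcium pump gene Atp2b4 rose with a log2 change of 1.02 (adjusted p 0.0181 in edgeR) and had ratios of 0.08 and 2.84 in cells. The buffer gene Calb1 fell from 377 ± 51.1 to 11.8 ± 2.16 CPM (SD, log2 change -4.84, adjusted p 4.44e-21 in edgeR), and its log2 ratio in cells was 0.91 at day 3 and -1.39 at day 7. The median log2 change of the 24 was 0.42.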

How the data were processed

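Picked DRG neurons were processed by Smart-seq2, which amplifies full-length polyA RNA and carries no molecular identifiers. Per the labels and the paper's methods, reads were aligned with Bowtie2 and quantified with RSEM on RefSeq exons, and mm9 is the build in the processing notes. The deposited values are expected counts, although the tables are named TPM: library totals were 223967 to 2003817, and whole numbers made up 60.7 to 93.6% of each library's positive values. The authors removed 11 outlier cells, all of day 3. Values were scaled to CPM over the column sum. The members and gene lists were chosen with earlier results of these data known.

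For the pools, rounded counts were tested with edgeR 4.0.16 (quasi-likelihood, TMM, prior count 0.125, R 4.3.3) over genes that averaged 1 CPM or more. A gene changed when its Benjamini-Hochberg adjusted p was below 0.05 and its log2 change beyond 1. Fitted changes include the TMM factors, while CPM values in the text do not. The fit was tested on simulated data. Replicate libraries differed by more than sampling noise (chi-square per gene 2.48 to 3.93). For cells, the log2 ratio of mean CPM + 1 is given without a test, with exact binomial (Clopper-Pearson) 95% intervals on shares, which like the limit of 3 counts cover counting error only. DESeq2 1.42.0, limma 3.58.1 and other settings were alternatives. Leaving out each cell and thinning to 200000 counts were chosen after seeing the data. Python 3.11.15, pandas 2.3.3, scipy 1.17.1 and matplotlib 3.10.9 were used. Named genes are the members, the listed genes that changed in the pools, and for each member the 3 genes of highest rho if at least 0.6. S100b stands in the buffer and glial lists, and Pvalb in the buffer and LM lists. The protocol label of the day-7 cells names 3 and 7 days, so their titles placed them, and the series' design text gives 106 neurons for the pools of a side, more than the methods do. The PEP markers were summed over 5 genes, and 1 further marker of that list is not reported here. Doublets were not sought, since cells were picked singly.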

Additional observations from a re-analysis of the deposited data

How the results depend on the processing

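Cacna2d1 passed both limits in the pools under all 14 alternatives (log2 change 1.95 to 2.42), and Cacnb3 kept an adjusted p below 0.05 in all 14 (0.000185 to 0.0211, in edgeR, DESeq2 or limma). Without 1 library, 1 to 2 members changed in the pools (2 without control library 3, through Cacna1h). The number of genes changed was 2154, with 1884 to 2148 without 1 library. Library size alone shifted the median over all genes from 0.02 to -0.14 (log2) and the share of changed genes that were higher from 55.4% to 43.6%, and the adjusted p of Cacna1b to 0.0758. With a replicate block for the library number 2008 genes and 1 member changed and no member changed its call. Deviations of libraries of the same number had r of 0.06, -0.02 and -0.01, and those of different number had r of -0.05 to 0.06. The libraries of a side are parts of 1 lysate, so these r cannot decide whether the numbers pair the samples. At day 3, 1 member was past 2-fold with all 70 cells or with a pseudocount of 10 CPM, against 2. With that pseudocount 650 genes were past 2-fold at day 3, against 1158, and 371 at day 7, against 737. In female cells of day 7 the count was 1279. Leaving out 1 cell gave 2 to 3 members at day 3 and 2 to 4 at day 7. At day 7 with male cells alone the members past 2-fold were Cacna1h and Cacna2d1, with medians Cacna1c, Cacna2d1, Cacna2d2 and Cacnb3, and with means of log2(CPM + 1) Cacna2d1, Cacna2d2 and Cacnb3. No day-7 cell was removed as an outlier, so all cells gave the same values there. Cacna1a (day 3, all cells, 0.07; day 7, female, -0.08), Cacna1c (day 7, medians, -1.94), Cacna1h (day 7, male, 1.40) and Cacna2d3 (day 3) turned sign under at least 1 alternative, none of them past 2-fold as reported. Depth limits the low genes of the pools: the control pools held 2 to 10 counts of Cacna1e and Cacna1h and at most 2 of Cacna1i. Thinning the day-3 cells moved the share above 10 CPM from 85.4% to 70.7% for Cacna1a in SNT cells, and from 88.9% to 72.2% for Cacna2d2 and from 72.2% to 55.6% for Cacna2d3 in control cells.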
